A study of Mus musculus with 4 samples.

Results

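The genes described here are the ligands, receptors and neuropilins of the vascular endothelial growth factor (VEGF) family. They were chosen by name, and each of the 9 symbols was found in the deposited table of 24346 genes: the receptors Kdr, Flt1 and Flt4, the neuropilins Nrp1 and Nrp2, and the ligands Vegfa, Vegfb, Vegfc and Pgf. The samples are RNA from endothelial cells that flow cytometry sorted out of hearts of mice labelled young, on a C57BL/6 background, and that were not cultured. Libraries of 2 genotypes were compared: ECp53KO (ECp53KO_170 and ECp53KO_172), read here as endothelial cells that lack p53, since endothelial p53 is what the series is named for, and the wild-type group Ctrl (Ctrl_178 and Ctrl_182). No agent or culture step is listed for either group. The promoter that drove the deletion, the deleted exons, the age of the mice in weeks and whether each library came from its own mouse are not known from the labels. The p-values below therefore measure the spread between these 4 libraries only.

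VEGF ligands are secreted dimers that bind receptor tyrosine kinases on endothelial cells. VEGF-A binds the receptors encoded by Flt1 and Kdr, and most of its growth, survival and permeability signals run through Kdr. Flt1 binds VEGF-A tightly but signals weakly, is also made as a soluble form, and is the receptor of VEGF-B and placental growth factor. Flt4 is the receptor of VEGF-C and is best known from lymphatic vessels and from sprouting blood vessels. Neuropilins lack a kinase, act as co-receptors of VEGF, and also bind class 3 semaphorins. In the heart VEGF-A and VEGF-B are made largely by muscle cells and reach the endothelium from outside.

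The promoters of Kdr and Flt1 are shown because these genes had the highest levels of the family. Both are the 250 bases upstream of a start in RefSeq (GRCm38.p6), written 5′ to 3′ on the minus strand, at chr5:75978456-75978705 for Kdr and chr5:147726012-147726261 for Flt1. Capitals mark matches, on either strand, to the SP1 motif GGGCGG, the ETS motifs CCGGAA and CAGGAA, and the TATA motif TATAAA.
Kdr: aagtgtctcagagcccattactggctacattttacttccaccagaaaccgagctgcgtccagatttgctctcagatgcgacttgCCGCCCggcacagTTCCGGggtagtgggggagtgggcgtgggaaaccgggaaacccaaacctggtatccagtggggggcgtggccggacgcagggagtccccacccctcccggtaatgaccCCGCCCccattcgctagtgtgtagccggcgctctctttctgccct
Flt1: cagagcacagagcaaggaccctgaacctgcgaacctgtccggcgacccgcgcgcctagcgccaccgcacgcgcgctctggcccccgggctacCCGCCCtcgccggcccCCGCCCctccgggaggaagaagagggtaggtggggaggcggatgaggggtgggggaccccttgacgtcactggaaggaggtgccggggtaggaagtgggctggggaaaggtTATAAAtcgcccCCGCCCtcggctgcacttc
RefSeq's gene spans reach farther upstream than these starts, while GENCODE exons cover 3 bases of the Kdr stretch and 0 of the Flt1 stretch. The Kdr stretch held 2 matches to GGGCGG and 1 to CCGGAA, and none to TATAAA. The Flt1 stretch held 3 matches to GGGCGG and 1 to TATAAA.

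All 9 members matched a promoter in that table, with 11 windows in all because Vegfa and Pgf had 2 starts each. GENCODE exons cover all 250 bases of the Flt4 window and of both Pgf windows, 218 of the second Vegfa window and 32 of the Nrp2 window, so these are in part or wholly transcribed sequence. GGGCGG was found in 10 of the 11 windows and in 58.6% of the 10818 windows of genes that passed the filter used below. TATAAA was found in 1 of the 11, against 6.24% of those windows. CCGGAA was found in 1 (22.6%), CAGGAA in 2 (22.1%), the hypoxia response core ACGTG in 1 (22.1%) and GATAAG in 0 (4.47%). The p53 half-site, searched by its consensus, was found in 0 of the 11 windows and in 5.86% of the windows of those genes. The share of G and C ran from 59.2% to 76.4% over the members' windows, with a median of 68.4%, against a median of 60% over the windows of genes that passed the filter. These counts describe letters in a short window and do not show that a factor binds there or does not.

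Levels are FPKM as deposited, that is fragments scaled by transcript length and by sequencing depth, so they can be compared between genes. Values of a group are given with ECp53KO_170 before ECp53KO_172 and Ctrl_178 before Ctrl_182, and where no group is named the ECp53KO values come first. Estimated depth was 9800000 to 11400000 fragments in 3 libraries and 22500000 in Ctrl_182. The targeted gene Trp53 was at 2.45 to 4.41 FPKM in the ECp53KO pair and at 28.8 to 52.1 FPKM in the Ctrl pair, without overlap (limma adjusted p = 0.146). The endothelial label was checked with 16 pan-endothelial markers, all of which passed the filter: their summed level was 7150 to 7280 FPKM in the ECp53KO pair and 7033 to 7160 in Ctrl. The leukocyte list (11 genes, Cd3e at 0 in every library and Ptprc at most 0.108 FPKM) summed to 5.78 to 11.3 FPKM. The cardiomyocyte list (13 genes, none at 0) summed to 474 and 276 FPKM in the ECp53KO pair and to 269 and 249.7 FPKM in the Ctrl pair. The pericyte and smooth muscle list (11 genes, none at 0) summed to 164 and 135 FPKM in the ECp53KO pair and 90.4 and 112 in the Ctrl pair. Erythroid genes (8 in the table, none at 0) summed to 457 FPKM in ECp53KO_170 and to 37.4 to 95.7 FPKM elsewhere. Capillary and venous sums overlapped between the groups. Arterial, endocardial and fibroblast sums were lower in both ECp53KO libraries, at 311 and 345 against 354 and 394 FPKM, 56.1 and 65.1 against 74.8 and 89.6 FPKM, and 34.9 and 35.1 against 39.03 and 43.4 FPKM. Their leading markers did not all follow. Sema3g, Cytl1 and Npr3 were lower without overlap, but Gja4, Gja5, Nfatc1, Dcn and Col1a1 overlapped and Pdgfra was higher. Over all tested genes 16.8% were lower and 19.1% higher without overlap. The part of these other cells in the results below was not tested. In such bulk samples fewer cells of a type and less RNA per cell cannot be told apart.

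Kdr, Flt1 and Nrp1 were among the most abundant transcripts of these cells, while Vegfa, Pgf and Vegfb were below the middle of the tested genes. By mean level the order was Kdr, Flt1, Nrp1, Nrp2, Vegfc, Flt4, Vegfa, Pgf and Vegfb. Kdr was above 98.4% of the 11332 genes whose mean reached 1 FPKM, Flt1 above 97.0%, Nrp1 above 97.0%, Nrp2 above 91.0%, Vegfc above 81.8% and Flt4 above 79.4%. Vegfa, Pgf and Vegfb were above 37.5%, 35.8% and 21.2% of these genes. All 9 passed that filter. Kdr was above Flt1 in 4 of 4 libraries with no overlap of their ranges, while Flt1 and Nrp1 changed places between libraries (Flt1 higher in 2 of 4). Nrp2 overlapped neither neighbour in this order. Vegfc and Flt4 overlapped (Vegfc higher in 3 of 4), as did Vegfa and Pgf (Vegfa higher in 2 of 4). Pgf and Vegfb overlapped in range, though Pgf was higher in 4 of 4 libraries.

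**Figure D1:**
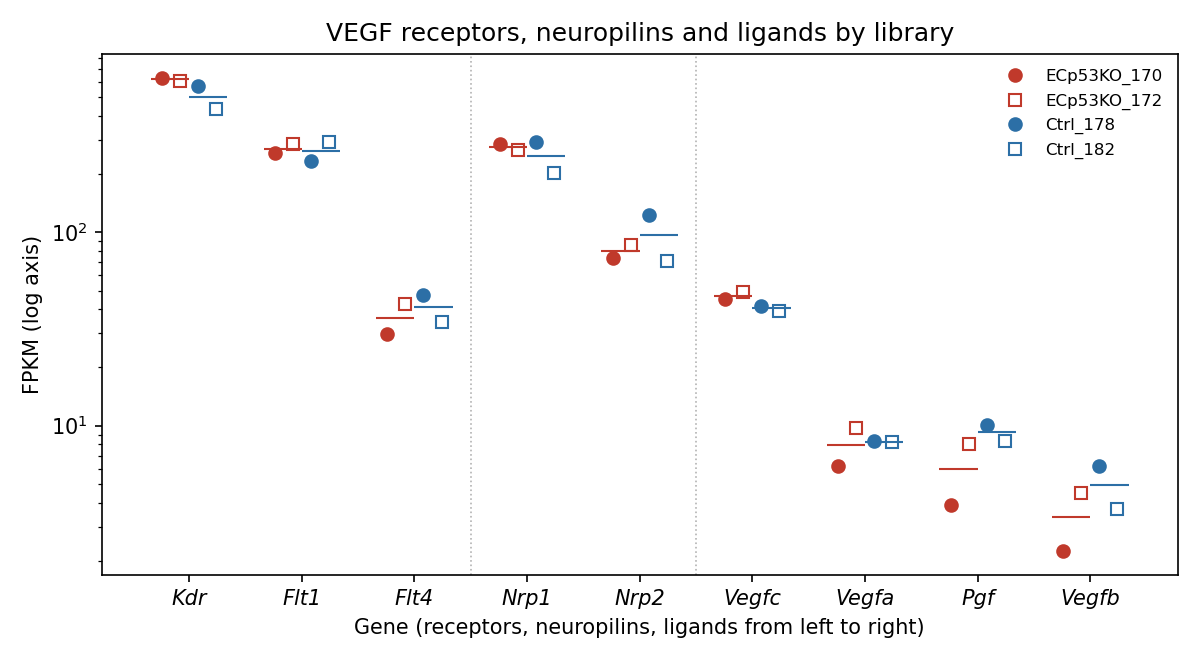
FPKM (log axis) of the 9 genes in each library: filled and open red symbols are ECp53KO_170 and ECp53KO_172, filled and open blue symbols are Ctrl_178 and Ctrl_182, and short lines are group means. Receptors and neuropilins stand at 29.7 to 631 FPKM, Vegfc at 39.4 to 49.0, and the other ligands at 2.25 to 10.1.

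None of the 9 genes passed the test between the genotypes, and neither did the targeted gene Trp53 (limma adjusted p = 0.146). Values were compared as log2(FPKM + 1) with limma, adjusted over all 11332 genes, and the members' adjusted p-values ran from 0.864 to 0.969. By limma 0 of the 9 had an unadjusted p under 0.05, against 4.78% of all tested genes. Only 0.115% of all genes passed after adjustment (0.0265% higher and 0.0882% lower), so a count of 0 among 9 is near the background. Groups did not overlap for 3 of the 9, Kdr and Vegfc being higher and Pgf lower in both ECp53KO libraries. This was also near the background, since 35.9% of all tested genes had no overlap (19.1% higher and 16.8% lower). When libraries were rescaled to equal sums (TPM), Kdr and Vegfc overlapped and only Pgf did not, while over all tested genes those higher without overlap went from 2163 to 1234 and those lower from 1902 to 2524. The members' median log2 fold change was -0.09, against 0.01 over all tested genes. It was -0.34 without ECp53KO_172 and ran up to 0.13, without ECp53KO_170, when each library was left out in turn.

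Kdr, which encodes the main signalling receptor (chromosome 5, 75932827 to 75979072), reached 631 and 608 FPKM in the ECp53KO pair, 573 FPKM in Ctrl_178 and 435 FPKM in Ctrl_182. Both ECp53KO libraries lay above both controls, but Ctrl_178 was closer to them than to Ctrl_182. Means were 620 ± 15.7 FPKM for ECp53KO and 504 ± 97.7 FPKM for Ctrl (SD, n = 2 each). Their log2 fold change was 0.31 ± 0.24 (SE), with a 95% interval from -0.31 to 0.93 (limma adjusted p = 0.864). It was 0.11 without Ctrl_182 and 0.51 without Ctrl_178, and with libraries rescaled to equal sums it was 0.20 and the groups overlapped.

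Flt1, the VEGF-A receptor with weak kinase activity (chromosome 5, 147561604 to 147726438), stood at 257 and 285 FPKM in the ECp53KO pair and at 234 and 292 FPKM in the Ctrl pair. The controls lay on either side of the ECp53KO libraries. The means were 271 ± 19.9 and 263 ± 41.0 FPKM (SD, n = 2 each), with a log2 fold change of 0.05 ± 0.21 and a 95% interval from -0.48 to 0.58 (limma adjusted p = 0.969). Its sign turned when the libraries were rescaled to equal sums (-0.06) and without ECp53KO_172 (-0.02) or Ctrl_178 (-0.11). The table gives 1 value per gene, so the soluble and the membrane form were not separated.

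Flt4, the VEGF-C receptor, lies on chromosome 11 (49609679 to 49652739), 19.9 Mb from Trp53. It stood at 29.7 and 42.7 FPKM in the ECp53KO pair and 47.5 and 34.5 FPKM in the Ctrl pair. The libraries of each genotype lay farther apart than the group means, 36.2 and 41.0 FPKM. The log2 fold change of Flt4 was -0.18 ± 0.25, with an interval from -0.83 to 0.47 (limma adjusted p = 0.906), and was positive without ECp53KO_170 (0.08) or Ctrl_178 (0.05). Markers of lymphatic endothelium, the vessel type for which Flt4 is known, were below Flt4 in every library. The most abundant was the chemokine gene Ccl21a, at 13.6 and 13.6 FPKM in the ECp53KO pair and 13.7 and 9.25 in the Ctrl pair, whose near-identical copies make its values uncertain. Lyve1 was at 5.44 FPKM or less and Prox1, the lymphatic master regulator, at 0.333 FPKM or less. The lymphatic list (6 genes, none at 0) summed to 18.5 and 20.1 FPKM in the ECp53KO pair and 20.6 and 18.4 in the Ctrl pair.

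Nrp1, the neuropilin that pairs with Kdr (chromosome 8, 128358591 to 128505476), stood at 287 and 267 FPKM in the ECp53KO pair and at 292 and 203 FPKM in the Ctrl pair. Ctrl_182 was the low library, and Ctrl_178 stood above both ECp53KO libraries. The log2 fold change was 0.18 ± 0.24, with an interval from -0.43 to 0.80 (limma adjusted p = 0.900), and -0.08 without Ctrl_182. Nrp2, the neuropilin known from veins and lymphatics (chromosome 1, 62703317 to 62818692), stood at 73.6 and 85.9 FPKM in the ECp53KO pair and at 123 and 71.1 FPKM in the Ctrl pair. Ctrl_178 was highest and Ctrl_182 lowest, so the ECp53KO libraries lay between the controls. Its log2 fold change was -0.23 ± 0.29, with an interval from -0.98 to 0.52 (limma adjusted p = 0.896), and it was 0.16 without Ctrl_178.

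Of 7 loci that overlap a member in RefSeq, only 2 were in the table. The lncRNA 4930487H11Rik inside Nrp2 stood at 1.08 to 2.21 FPKM and Mir1903 inside Nrp1 at 0.000168 FPKM or less. Libraries kept no strand, so reads of such loci and of the host gene cannot be told apart. Among the 16 pan-endothelial genes, those whose centred log2 profile over the 4 libraries lay nearest to Kdr were Icam2, Emcn and Ecscr (Euclidean distance 0.20, 0.27 and 0.30), and for Nrp1 they were Icam2, Ecscr and Emcn (0.17, 0.31 and 0.39). All 3 were lowest in Ctrl_182, like Kdr and Nrp1, with Icam2, an adhesion molecule, at 473 and 380 FPKM in the ECp53KO pair and 420 and 312 in the Ctrl pair. For Flt1 they were Fli1, Pecam1 and Esam (0.18, 0.29 and 0.29).

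Vegfc was the most abundant ligand of the sorted cells. It encodes the ligand of Flt4 (chromosome 8, 54077532 to 54186454) and stood at 45.1 and 49.0 FPKM in the ECp53KO pair and at 41.6 and 39.4 FPKM in the Ctrl pair. Both ECp53KO libraries lay above both controls, by a small margin. The means were 47 ± 2.78 and 40.5 ± 1.56 FPKM (SD, n = 2 each). On the log2 scale the difference was 0.21 ± 0.15, with an interval from -0.16 to 0.59, the narrowest of the 9 (limma adjusted p = 0.864). It ran from 0.10 to 0.27 over the 14 alternatives, the lowest with libraries rescaled to equal sums, where the groups overlapped.

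Vegfa, the main ligand of Kdr (chromosome 17, 46016993 to 46032377), stood at 6.15 and 9.67 FPKM in the ECp53KO pair and at 8.31 and 8.22 FPKM in the Ctrl pair. The controls were nearly equal and lay between the ECp53KO libraries, which were the lowest and the highest of the 4. On the log2 scale the difference was -0.09 ± 0.24, with an interval from -0.69 to 0.52 (limma adjusted p = 0.951), and was 0.20 without ECp53KO_170 and -0.37 without ECp53KO_172. ECp53KO_170, with the lowest Vegfa, had the highest sum of cardiomyocyte markers. Whether Vegfa and that sum are linked was not tested.

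Pgf, which encodes placental growth factor (chromosome 12, 85166637 to 85177785), stood at 3.88 and 8.01 FPKM in the ECp53KO pair and at 10.1 and 8.37 FPKM in the Ctrl pair. Both ECp53KO libraries were below both controls, but ECp53KO_172 was only just below Ctrl_182. The means were 5.94 ± 2.92 and 9.24 ± 1.23 FPKM (SD, n = 2 each). The log2 fold change, -0.62 ± 0.33, had the largest size among the 9, with an interval from -1.45 to 0.21 (limma adjusted p = 0.864). It was -0.18 without ECp53KO_170 and -1.06 without ECp53KO_172, so ECp53KO_170 set most of its size.

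Vegfb, a Flt1 ligand (chromosome 19, 6982472 to 6987651), was the lowest member, at 2.25 and 4.48 FPKM in the ECp53KO pair and 6.16 and 3.73 FPKM in the Ctrl pair. ECp53KO_172 stood above Ctrl_182, so the groups overlapped. The log2 fold change was -0.46 ± 0.35, with an interval from -1.35 to 0.42 (limma adjusted p = 0.864), and -0.09 without ECp53KO_170. Its values rest on an estimated 33 to 107 fragments per library, for which counting alone gives an error of 9.66% to 17.4%. Pgf rests on an estimated 92 to 391 fragments and Vegfa on 242 to 638, against 35362 to 57849 for Kdr. VEGF-D, listed under its older symbol Figf, was at 0.139 to 0.317 FPKM and did not pass the filter.

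The libraries did not order the members alike. ECp53KO_170 held the lowest value of Flt4, Vegfa, Vegfb and Pgf, and also the highest value of Kdr. Ctrl_182 held the lowest value of Kdr, Nrp1, Nrp2 and Vegfc, and the highest of Flt1. Ctrl_178 held the highest value of 5 members, namely Flt4, Nrp1, Nrp2, Vegfb and Pgf. In ECp53KO_170, levels were lower the longer the transcript, measured against the mean of the other libraries (across 11042 genes, themselves no independent replicates, Spearman's rho was -0.47). Measured alike, rho was 0.31 in ECp53KO_172, 0.15 in Ctrl_178 and 0.26 in Ctrl_182. The mean that each of these was set against contains ECp53KO_170, so their positive values are not independent of its negative one. The members' transcripts had a median of 3597 bases, against 3010.5 over tested genes. Once the trend with length had been taken out of each library, the log2 fold change was 0.38 for Kdr, 0.14 for Flt1, -0.67 for Pgf and -0.58 for Vegfb. These were larger in size than before. Those of Flt4 (-0.10), Nrp2 (-0.14) and Vegfc (0.18) were smaller, and those of Nrp1 (0.19) and Vegfa (-0.09) hardly moved. None of the 9 passed.

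**Figure D2:**
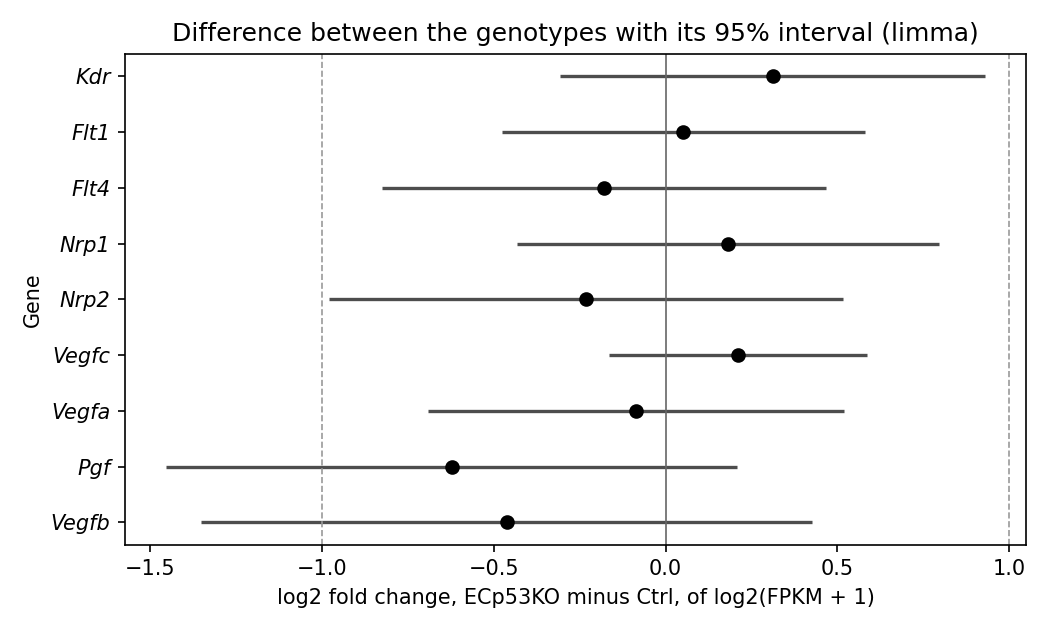
Log2 fold change (ECp53KO minus Ctrl, of log2(FPKM + 1)) of each gene as a point with its 95% interval from limma, and dashed lines at a 2-fold change either way. Every interval includes 0, and those of Pgf and Vegfb reach past a 2-fold decrease.

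How large a difference these libraries leave possible differed between members. For 7 of the 9 the 95% interval stayed within a 2-fold change in either direction, as it did for 80.5% of all tested genes. The exceptions were Pgf and Vegfb, whose intervals reached down to -1.45 and -1.35. On the log2(FPKM + 1) scale differences of such low genes are understated. The count of 7 fell when any 1 of the 4 libraries was left out, least without ECp53KO_170 and most without Ctrl_182. In each of these fits 1 residual degree of freedom was left. These intervals do not show that the genotypes are alike.

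Kdr led the receptor sum and Vegfc the ligand sum in all 4 libraries. Kdr took 68.7% and 65.0% of the summed receptor FPKM in the ECp53KO pair and 67.1% and 57.1% in Ctrl. Flt1 took 28.0% and 30.5% in ECp53KO and 27.4% and 38.3% in Ctrl, and Flt4 between 3.24% and 5.57% in all. Summed receptor FPKM were 917 and 936 in ECp53KO and 854 and 761 in Ctrl, and summed ligand FPKM were 57.4 and 71.2 in ECp53KO and 66.2 and 59.7 in Ctrl. Receptor transcripts exceeded ligand transcripts 16.0 and 13.2 times in ECp53KO and 12.9 and 12.7 times in Ctrl.

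**Figure D3:**
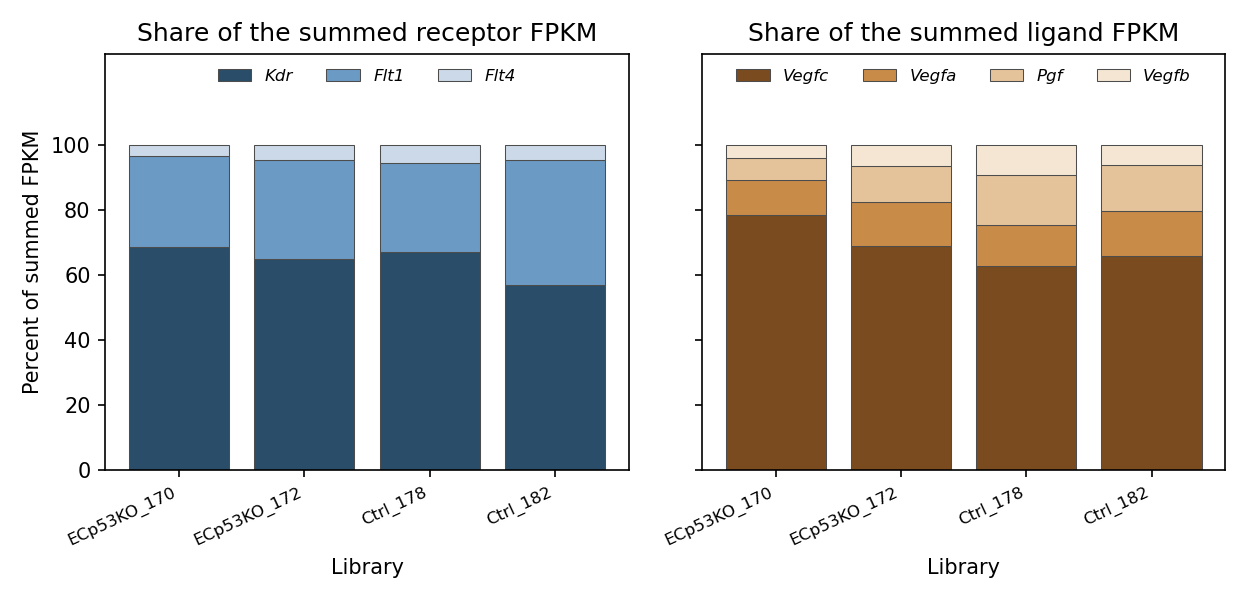
Stacked bars of each gene's share (percent) of the summed FPKM of the 3 receptors (left) and of the 4 ligands (right), by library. Kdr takes 57.1% to 68.7% of the receptor sum and Vegfc 62.9% to 78.6% of the ligand sum.

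Among ligands, Vegfc took 78.6% and 68.9% of the sum in ECp53KO and 62.9% and 66.0% in Ctrl. Pgf took 6.76% and 11.2% in ECp53KO and 15.3% and 14.0% in Ctrl, so neither share overlapped between the groups. The ratio of Vegfa to Pgf was 1.58 and 1.21 in ECp53KO and 0.822 and 0.982 in Ctrl: Vegfa was the higher of the pair in both ECp53KO libraries and Pgf in both controls. The ratio of Nrp1 to Nrp2 was 3.89 and 3.10 in ECp53KO and 2.37 and 2.86 in Ctrl. The ratio of Kdr to Flt4 was 21.2 and 14.2 in ECp53KO and 12.0 and 12.6 in Ctrl, and that of Kdr to Flt1 was 2.45 and 2.13 against 2.45 and 1.49, which overlapped. The ratio of Vegfc to Vegfa was 7.33 and 5.07 in ECp53KO and 5.01 and 4.79 in Ctrl, and that of Vegfc to Pgf 11.6 and 6.12 against 4.11 and 4.71. Of 7 ratios between members, 5 did not overlap between the groups. The 35.9% of all tested genes without overlap refers to levels of single genes, and the share for ratios was not computed. Several of the 5 ratios share a gene, and ECp53KO_170 held the most extreme value in each of the 5. With 2 libraries against 2, the smallest p of a two-sided exact permutation test is 0.333, so these ratios are given as a description.

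The wider pathway was described with 8 lists holding 139 genes, of which 114 passed the filter. By limma 0 of the 114 passed after adjustment over all genes, with a smallest adjusted p of 0.864. Of the 114, 51 did not overlap between the groups (44.7%, against 35.9% of all tested genes).

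Proteins that bind or regulate the receptors were represented by 23 tested genes of 25, 9 with a positive and 14 with a negative fold change, a median of -0.04, and 1 higher and 7 lower without overlap. Over all tested genes 19.1% were higher and 16.8% lower without overlap. Cdh5, which encodes VE-cadherin, a partner of Kdr, stood at 982 and 958 FPKM in the ECp53KO pair and 1098 and 1022 in the Ctrl pair. Cbl, a ubiquitin ligase that targets activated receptors, stood at 6.07 and 10.3 against 10.4 and 11.5 FPKM, with a log2 fold change of -0.42 ± 0.26. Epn1, an endocytic adaptor, stood at 55.0 and 61.3 against 73.3 and 63.1 FPKM. The integrin gene Itgb3 was lower in both ECp53KO libraries, at 0.978 and 1.63 against 2.28 and 2.42 FPKM (limma adjusted p = 0.864).

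Genes that carry the signal inside the cell gave 30 tested of 36, with a median of -0.05 and 7 higher and 6 lower without overlap (19.1% and 16.8% of all tested genes). Hspb1, a small heat shock protein phosphorylated downstream of Kdr, had the smallest p of the list. It stood at 1636 and 1270 FPKM in the ECp53KO pair and 948 and 598 in the Ctrl pair, a difference of 0.94 ± 0.34 on the log2 scale (limma adjusted p = 0.864). The adaptors Shc1 (27.0 and 27.4 against 32.5 and 34.3 FPKM) and Gab1 (6.26 and 9.25 against 11.2 and 9.96 FPKM) were lower in both ECp53KO libraries. Of the proteins that process VEGF-C, Ctsd was at 217 to 275 FPKM with overlapping groups, while Ccbe1, Adamts3 and Adamts14 did not exceed 0.141 FPKM in any library.

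Genes known to respond to VEGF in endothelial cells had 17 of 28 tested members without overlap (3 higher and 14 lower), against 35.9% of all tested genes (19.1% higher and 16.8% lower). Their median log2 fold change was -0.19, against 0.01 over all tested genes, and -0.28 to -0.18 when each library was left out in turn. At an unadjusted limma p under 0.05, 1 was higher and 7 lower, against 4.78% of all tested genes in either direction (223 higher and 319 lower of 11332), and 0 passed adjustment. Stc1, which encodes stanniocalcin, stood at 8.16 and 8.38 FPKM in the ECp53KO pair and 14.0 and 14.8 in the Ctrl pair, a difference of -0.73 ± 0.15 on the log2 scale (limma adjusted p = 0.864). The nuclear receptor gene Nr4a2 stood at 2.91 and 3.18 against 5.32 and 9.07 FPKM, with a log2 fold change of -0.98 ± 0.27. Esm1, a proteoglycan of tip cells, went the other way, at 16.5 and 11.1 against 7.14 and 7.28 FPKM, with a log2 fold change of 0.83 ± 0.22. The list holds immediate early genes, among them Egr1, Egr2, Egr3, Nr4a1, Nr4a2 and Nr4a3, which many stimuli induce. Like the other lists, it was chosen with earlier results of these data known, so its counts are given as a description.

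**Figure D4:**
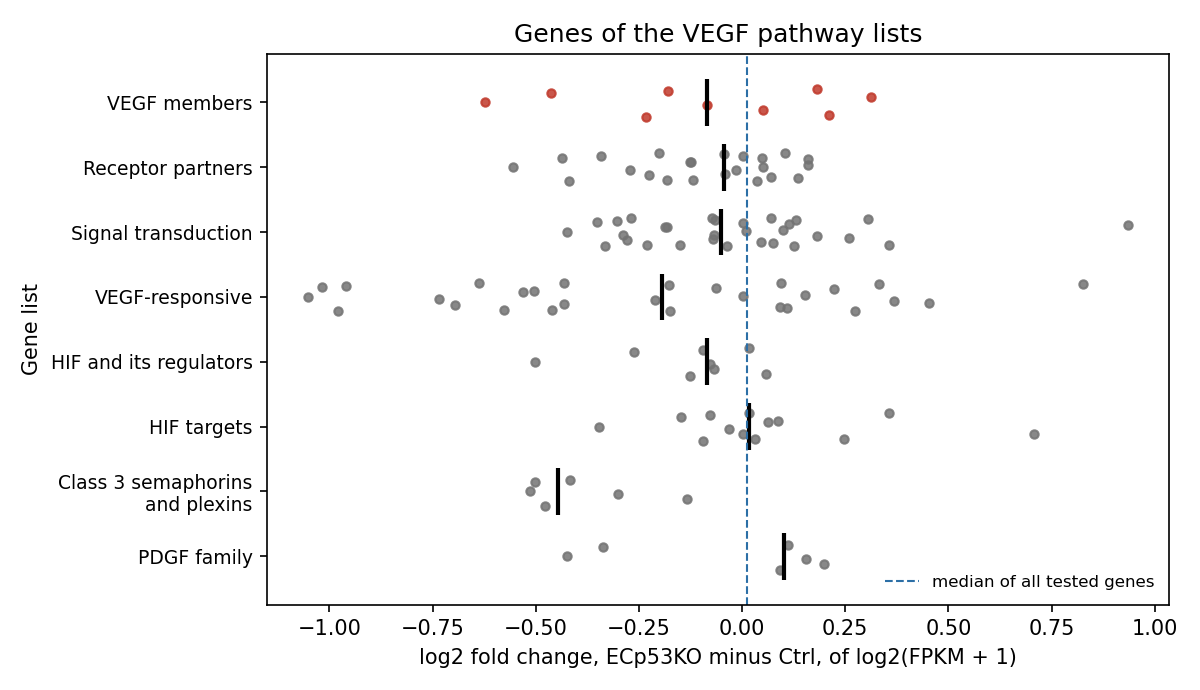
Log2 fold change (ECp53KO minus Ctrl) of each tested gene in the VEGF family (red) and in 7 pathway lists (grey), with black bars at list medians and a dashed line at the median of all tested genes (0.01). The VEGF-responsive genes spread from -1.05 to 0.83, and the VEGF family from -0.62 to 0.31.

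The hypoxia-inducible factors, which drive Vegfa and Flt1 in low oxygen, and their regulators were all tested (8 of 8, median -0.09, 4 lower and 0 higher without overlap, against 16.8% and 19.1% of all tested genes). Epas1, which encodes the endothelial factor HIF-2α, was low in ECp53KO_170 (217 FPKM) and at 422, 390 and 473 FPKM in ECp53KO_172, Ctrl_178 and Ctrl_182. Hif1a stood at 21.4 and 23.4 against 25.5 and 23.5 FPKM, and Hif1an, which encodes the hydroxylase that restrains both, at 5.51 and 6.39 against 6.75 and 7.91 FPKM. Of the targets of these factors, 13 of 15 were tested, with a median of 0.02 and 3 higher and 1 lower without overlap (19.1% and 16.8% of all tested genes). P4ha1, a collagen prolyl hydroxylase, stood at 25.2 and 30.01 against 17.8 and 15.2 FPKM, a difference of 0.71 ± 0.17 on the log2 scale (limma adjusted p = 0.864). The glucose transporter gene Slc2a1 stood at 8.35 and 8.57 against 11.5 and 10.6 FPKM, and Ldha, lactate dehydrogenase, at 355 and 323 against 272 and 256 FPKM.

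Class 3 semaphorins, the other ligands of the neuropilins, and their plexin receptors had 6 tested members of 12. All 6 had a negative fold change, with a median of -0.45, but only Sema3g did not overlap (35.9% of all tested genes did not), at 68.7 and 99.9 FPKM in the ECp53KO pair and 102 and 136 in the Ctrl pair. Plxna2 stood at 24.6 and 43.0 against 37.6 and 51.0 FPKM and Plxna4 at 2.67 and 5.70 against 7.04 and 5.25 FPKM. ECp53KO_170 was the lowest library for both. The list's median was -0.05 without ECp53KO_170 and -0.77 without ECp53KO_172, and -0.32 with the length trend removed.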

How the data were processed

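The study measured polyadenylated RNA of sorted mouse heart endothelial cells in 2 ECp53KO and 2 Ctrl libraries. Per the labels' protocols, libraries were non-stranded and sequenced as pairs of 51-base reads. Cufflinks 2.2.1, TopHat2 2.1.0, Trimmomatic 0.36, FastQC 0.11.5, bcl2fastq 2.17 and build mm10 are listed in the submitters' processing notes. The authors deposited FPKM values per gene symbol, which keep no counts; annotation and filters were not stated.

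Depth was estimated per library over 1063 low genes: the commonest value of FPKM times transcript length was taken as 1 fragment. The 11332 genes whose mean reached 1 FPKM were analysed as log2(FPKM + 1), a scale that understates changes of low genes, with limma 3.58.1 in R 4.3.3 (intensity trend, two-sided, no covariate, Benjamini-Hochberg adjustment over all tested genes, threshold 0.05, 2 residual degrees of freedom). The script was tested on simulated data with independent noise and no length trend, so that check does not cover the trend seen in these libraries.

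Members and lists were chosen with earlier results of these data known. Named genes were the members, Trp53, overlapping genes, the 3 smallest p-values per pathway list, leading markers, and the 3 pan-endothelial genes with profiles nearest to Kdr, Flt1 and Nrp1. Positions and promoters are RefSeq's (GRCm38.p6, the assembly behind mm10), and transcript lengths GENCODE M21's. The closing section gives 14 alternatives.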

Additional observations from a re-analysis of the deposited data

How the results depend on the processing

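Over the 14 alternatives 0 of the 9 members passed the threshold, and the smallest adjusted limma p of any member was 0.305, for Pgf without ECp53KO_172. Of the member values under an alternative, 117 kept their direction and 8 turned. Vegfb gave no value with a mean of at least 5 FPKM, which it does not reach. Kdr, Vegfc, Pgf and Vegfb kept their sign throughout. The log2 fold change of Flt1 was -0.065 when libraries were rescaled to TPM, which moved the median of all genes from 0.01 to -0.10. On leaving out each library in turn it ran from -0.11 to 0.21, that of Flt4 from -0.43 to 0.076, Nrp1 from -0.081 to 0.44, Nrp2 from -0.63 to 0.16 and Vegfa from -0.37 to 0.20. The members' median then ran from -0.34 to 0.13, the median of class 3 semaphorins and plexins from -0.77 to -0.054, and the number of members with an interval within a 2-fold change from 2 to 6. That number was 4 with no filter on low values and 4 after rescaling to TPM. Among all tested genes 3 were higher and 10 lower. With a pseudocount of 0.1 or robust shrinkage 5 were higher, and lower genes numbered 33 with no filter and 4 without small RNA loci. Leaving out a library gave 1 to 21 higher and 12 to 53 lower. The causes of these shifts were not tested. No paired analysis was possible because no number in the labels occurs in both genotypes. Vegfb and Pgf rest on the fewest estimated fragments of the 9 members, and they differed 1.99-fold and 2.06-fold between the ECp53KO libraries.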

Other observations

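Beside the VEGF-responsive genes named above by rule, 5 others of that list had an unadjusted limma p under 0.05 and were lower in both ECp53KO libraries. Over all tested genes 4.78% had such a p in either direction, and 16.8% were lower without overlap. The genes of this paragraph are named after their values were seen. Nr4a1, an immediate early nuclear receptor, stood at 75.0 and 121 FPKM in the ECp53KO pair and 157 and 221 in the Ctrl pair. Egr3, a transcription factor induced by VEGF, stood at 1.79 and 2.37 against 3.67 and 4.26 FPKM. Plaur, the urokinase receptor gene, stood at 14.7 and 19.7 against 28.2 and 23.7 FPKM, and the metalloprotease gene Adamts1 at 137 and 144 against 198 and 181.8 FPKM. The basement membrane gene Nid2 stood at 23.8 and 48.4 against 81.1 and 60.1 FPKM. Apln, the ligand of the apelin receptor, had the most negative fold change of the list (-1.05 ± 0.44) and rests on Ctrl_178, at 46.1 FPKM against 18.4 in Ctrl_182 and 11.7 and 15.7 in ECp53KO. None passed adjustment over all genes (limma adjusted p = 0.864 for each).

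Relatives of the VEGF family, the platelet-derived growth factors and their receptors, had 6 tested genes of 9 and a median log2 fold change of 0.10. Without overlap 2 were higher and 2 lower (19.1% and 16.8% of all tested genes). Pdgfb, the factor by which endothelium recruits pericytes, was named for its role after its values were seen and stood at 175 and 210 FPKM in the ECp53KO pair and 181 and 178.1 in the Ctrl pair. Kit, a receptor tyrosine kinase, was lower in both ECp53KO libraries (6.28 and 6.73 against 11.8 and 6.89 FPKM), though ECp53KO_172 was close to Ctrl_182. So was Pdgfa (3.80 and 4.02 against 6.46 and 4.16 FPKM), while Pdgfrb overlapped (3.91 and 3.45 against 2.54 and 3.68 FPKM).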
